A study of Mus musculus with 6 samples.

Results

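Immune nuclei were selected from single-nucleus RNA sequencing of kidney cortex, and 50 of 61939 kept nuclei met the rule. Nuclei were kept with at least 300 detected genes and at most 5% of their unique molecular identifiers (UMIs, which count RNA molecules) from mitochondrial genes. A kept nucleus counted as immune when Ptprc, Dock2, Ikzf1 and Inpp5d together had at least 3 UMIs, with at least 2 of these 4 genes detected. It also had to have 0 UMIs of the endothelial gene Flt1, the podocyte gene Nphs1 and the mesenchymal gene Pdgfrb, and at most 1 UMI each of the tubule genes Slc34a1 and Slc12a1. Immune nuclei were then split by the highest sum of myeloid genes (Csf1r, Mrc1, Cd74), T cell genes (Skap1, Themis) or the B cell gene Bank1. This put 26 nuclei in the myeloid class, 6 in the T class and 0 in the B class. The other 18 had no UMI of any of these genes and are referred to as nuclei with no split gene.

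All mice were FVB/N and carried floxed alleles of Klf4, a zinc finger transcription factor. The 3 control libraries were Klf4 fl/fl, and the 3 knockout libraries were Klf4 fl/fl with Podocin-Cre, a recombinase driven by a podocyte promoter, so the immune cells were not its target. Ages, sexes, litters and days were not given in the labels. The Y-linked gene Ddx3y had 833 to 5091 UMIs per library in kept nuclei, and Xist, expressed in female cells, had 9 to 49. RNA in every library was thus mainly of male cells. The labels do not say that the libraries of a group came from separate animals, so p-values measure the spread between these libraries only. Klf4 itself had 0 UMIs among the 70861 UMIs of the immune nuclei, which allows up to 42.3 CPM, where CPM stands for UMIs of a gene scaled to 1e+06 UMIs of the nuclei in question. Over all kept nuclei it stood at 2.67, 1.35 and 1.88 CPM in controls 1, 2 and 3 and at 5.18, 1.39 and 4.13 CPM in knockouts 1, 2 and 3, a sum over cell types that does not check a deletion in podocytes.

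Leukocytes share the phosphatase CD45, encoded by Ptprc, and the signalling genes Dock2 (a Rac exchange factor of migrating leukocytes), Ikzf1 (the transcription factor Ikaros) and Inpp5d (the lipid phosphatase SHIP1). In the kidney, macrophages and dendritic cells form a network between the tubules, take up antigen and present it on class II molecules, and T cells recognise antigen through the T cell receptor. A nucleus holds mostly unspliced and newly made RNA, so genes known from surface proteins or whole cells can be sparse in such data.

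The libraries differed in size and quality. The kept nuclei numbered 19645, 3845 and 5234 in controls 1, 2 and 3, against 22069, 5082 and 6064 in knockouts 1, 2 and 3. The libraries numbered 1 stood apart, with a median mitochondrial share of 2.50% in control 1 and 1.02% in knockout 1, against 0.0851 to 0.162% in the other 4. Slc34a1, a phosphate transporter of the proximal tubule, was above the limit of 1 UMI in 94.5, 64.4 and 72.3% of kept nuclei of controls 1, 2 and 3 and in 81.0, 63.0 and 52.8% of those of knockouts 1, 2 and 3. A total of 461 of 61473 barcode sequences occurred in more than 1 library, and 0 of the 50 immune nuclei carried such a barcode.

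The tubule limits removed most candidates. At least 3 marker UMIs were present in 583 kept nuclei, and 497 of these had at least 2 markers. Excluding Flt1, Nphs1 and Pdgfrb left 245, the Slc34a1 limit left 56 and the Slc12a1 limit left 50. The 252 removed by Flt1, Nphs1 or Pdgfrb had a median of 10913.5 UMIs. The 195 removed by the 2 tubule limits had a median of 3476 UMIs, 12 of them from Slc34a1, and the 50 immune nuclei had a median of 1106.5 UMIs. The immune rule therefore returned nuclei of low RNA content, and it returned 1 of the 36 candidates of control 1 that remained before the tubule limits. In the same order, 3 of 9 remained in control 2, 10 of 26 in control 3, 21 of 130 in knockout 1, 7 of 19 in knockout 2 and 8 of 25 in knockout 3.

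**Figure D1:**
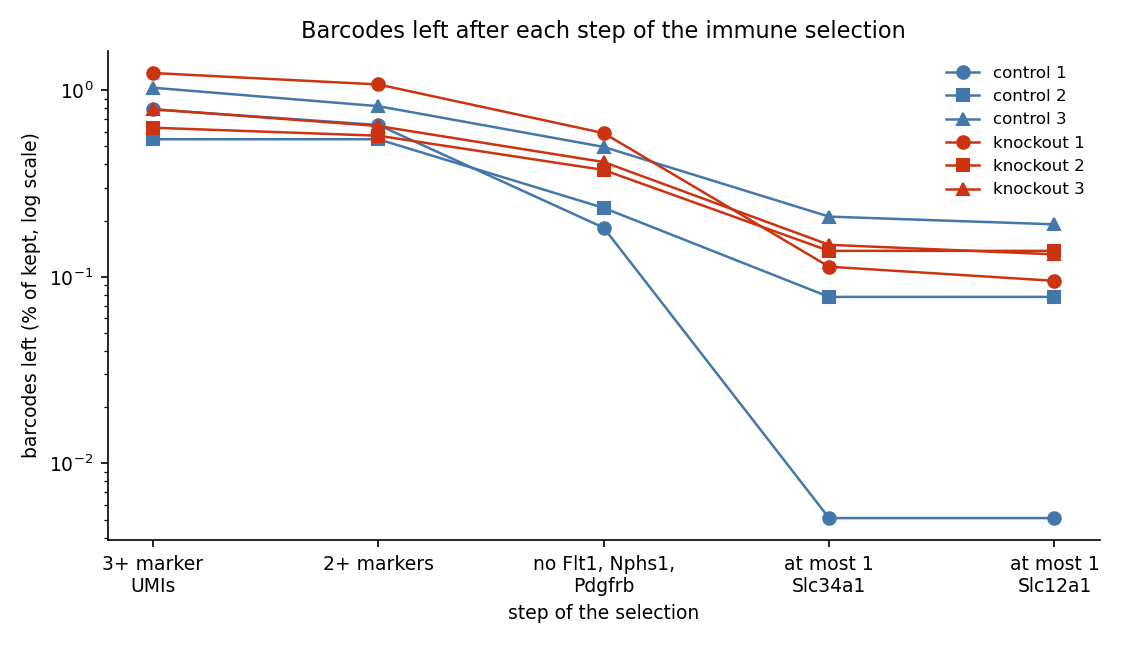
Barcodes left after each step of the immune selection, as a percentage of kept nuclei on a log axis, with 1 line for each library. Control 1 fell from 0.183% to 0.00509% at the Slc34a1 limit, while the other 5 libraries ended between 0.0780 and 0.191%.

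The 20 immune-wide genes that the rule did not use describe what was selected. They are leukocyte signalling and cytoskeleton genes such as Arhgap15, Elmo1, Fyb and Coro1a. Together they had 511 UMIs in the immune nuclei, or 7211 CPM, against 595 CPM in the 61889 other kept nuclei, a ratio of 12.1. The comparison follows from how the nuclei were chosen and is a description with no test. Elmo1, which pairs with Dock proteins to activate Rac, was detected in 38 of 50 immune nuclei and in 5.96% of the others. Arhgap15, a Rac GTPase-activating protein, was detected in 34 of 50 and in 12.9% of the others. Median depth was 1106.5 UMIs in the immune nuclei and 1751 in the others, so the higher shares stood at the lower depth.

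Classes differed in how much immune RNA they held. Myeloid nuclei had a median of 12.5 UMIs of the 20 genes (range 7 to 27), and T nuclei had a median of 13 (range 10 to 24). Nuclei with no split gene had a median of 4.5 (range 1 to 12), at a median depth of 1006 UMIs against 1166.5 in the myeloid class. Of these 18 nuclei, 6 had fewer than 3 such UMIs. Another 9 of the 18 had at least 5. Every myeloid and T nucleus thus held other immune RNA, while part of the nuclei with no split gene held little.

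RNA of other kidney cells was present in most immune nuclei. A set of 27 tubule genes, without the 2 of the rule, had a median of 10 UMIs per immune nucleus (range 0 to 71) and exceeded the 20 immune-wide genes in 24 of 50 nuclei. That held for 10 of 26 myeloid, 2 of 6 T and 12 of 18 nuclei with no split gene. Kap, an androgen-regulated proximal tubule gene, had UMIs in 36 of 50 immune nuclei and in 86.7% of the others. Slc8a1, a sodium-calcium exchanger that the distal list holds, had 132 of the 251 UMIs of the distal genes. It was detected in 21 of 26 myeloid nuclei, 1 of 6 T nuclei and 9 of 18 with no split gene. Its level in myeloid nuclei was 2508 CPM, against 1234 CPM in the other kept nuclei, 29.1% of which held it. The single myeloid nucleus of control 2 held 40 of the 105 myeloid UMIs of Slc8a1. The level was 1661 CPM without that library and 4284 CPM without knockout 1. Whether Slc8a1 RNA in myeloid nuclei came from tubule or from these nuclei themselves was not tested. The set of 27 tubule genes includes Slc8a1. The 15 proximal tubule genes together stood at 5.84 UMIs per 1000 in immune nuclei and 16.0 in the others, a direction that the Slc34a1 limit favours, and control 1 went the other way with 22.3 against 20.7. At least 3 UMIs of 9 endothelial genes were found in 9 immune nuclei, 6 of them with no split gene. Scrublet, a doublet caller, scored 3 of the 50 immune nuclei among the highest of their library, all 3 in knockout 1. The share counted as highest grew with library size. It covered 3831 of 22069 kept nuclei in knockout 1, 2919 of 19645 in control 1 and 104 to 293 in each smaller library. The part of RNA from other cells in the immune results was not tested.

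**Figure D2:**
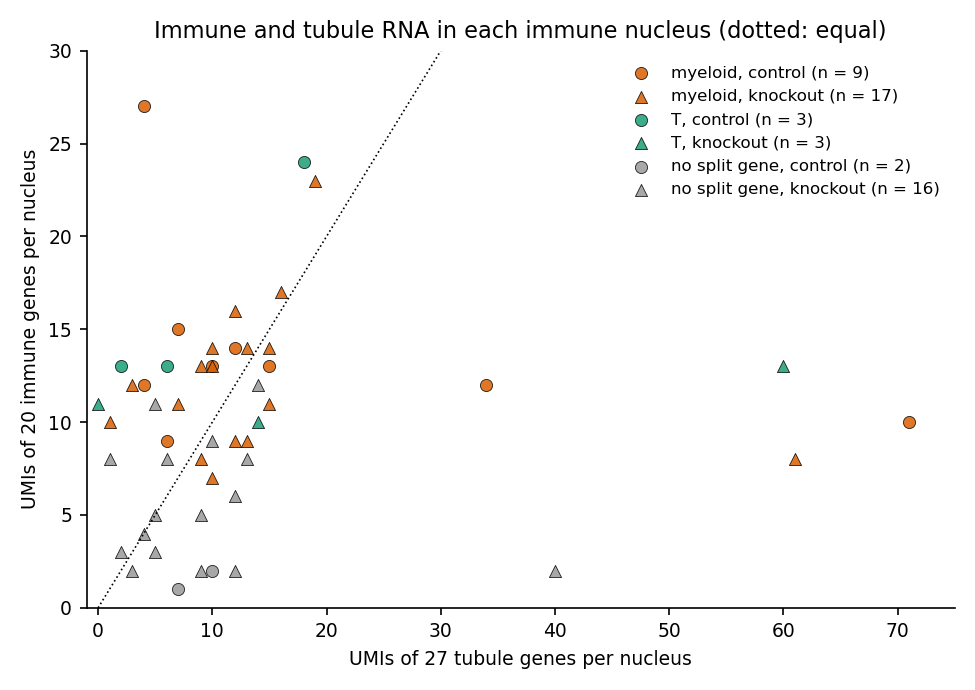
UMIs of 20 immune-wide genes (vertical axis) against UMIs of 27 tubule genes (horizontal axis) in each of the 50 immune nuclei, by class and group, with a dotted line of equality. Myeloid and T nuclei lie at 7 or more immune-wide UMIs, and 24 nuclei lie to the right of the line.

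The 17 nuclei at the lower limit of 3 marker UMIs had a median of 8 UMIs of the 20 immune-wide genes, and 26 nuclei that failed with 2 marker UMIs had a median of 5. The 20 nuclei with 1 UMI of Slc34a1 had a median of 10.5, and 9 nuclei that failed with 2 had a median of 12.

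Knockout and control libraries did not differ beyond their spread in the share of immune nuclei. Controls 1, 2 and 3 held 1, 3 and 10 immune nuclei, and knockouts 1, 2 and 3 held 21, 7 and 8. As a share of kept nuclei this was 0.00509% (exact 95% interval 0.000129 to 0.0284%) in control 1, 0.0780% (0.0161 to 0.228%) in control 2 and 0.191% (0.0917 to 0.351%) in control 3. In knockouts 1, 2 and 3 it was 0.0952% (0.0589 to 0.145%), 0.138% (0.0554 to 0.284%) and 0.132% (0.0570 to 0.260%). The intervals are Clopper-Pearson intervals and cover counting error only. The knockout libraries lay close together, between control 2 and control 3. The means were 0.0914% ± 0.0937 (SD, n = 3) in control and 0.122% ± 0.0231 (SD, n = 3) in knockout, a difference of 0.0302 percentage points (exact two-sided permutation p = 0.6, smallest possible p 0.1). The knockout library was higher in 2 of the 3 numbered pairs, and with the libraries numbered 2 and 3 alone the difference was 0.000293. Without control 1 the difference was -0.0129, and without control 3 it was 0.0801, so both libraries set its direction or size. Control 1 also had the highest share of nuclei above the Slc34a1 limit. Without the limits on Slc34a1 and Slc12a1, a setting chosen after the data were seen, the shares were 0.183, 0.234 and 0.497% in controls 1, 2 and 3, against 0.589, 0.374 and 0.412% in knockouts 1, 2 and 3, a difference of 0.154 (exact permutation p = 0.3, n = 3 per group). The groups overlapped there too. What part the tubule RNA of each library had in the share was not tested.

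Changes of single genes between the groups were tested only on the 245 nuclei left without the tubule limits, since under the full rule control 3 and knockout 1 alone reached 10 nuclei. This fit was also chosen after the data were seen. It used the UMI sums of the 5 libraries with at least 10 such nuclei, which leaves out control 2. With edgeR's quasi-likelihood test, 0 of 3495 genes (0%) passed an adjusted p of 0.05, and 163 had an unadjusted p under 0.05. With the library number as a block, 38 genes passed, 12 higher and 26 lower in knockout, from a fit with 1 residual degree of freedom. Cd74, a gene of the myeloid split, was among them with a log2 change of -1.49 (edgeR adjusted p = 0.0116), and so were Kap at -1.02 (edgeR adjusted p = 0.0434) and Il34 at 1.09 (edgeR adjusted p = 0.0450). No gene of the immune lists outside the rule was. Control 1 and control 3 were the only controls in these fits. Without control 3, control 1 alone stood for the control group, so no count of genes is given for that setting. These nuclei held a median of 15.3 tubule UMIs per 1000 where the limits removed them, against 7.81 in the 50 immune nuclei, and the part of that RNA in the result was not tested.

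**Figure D3:**
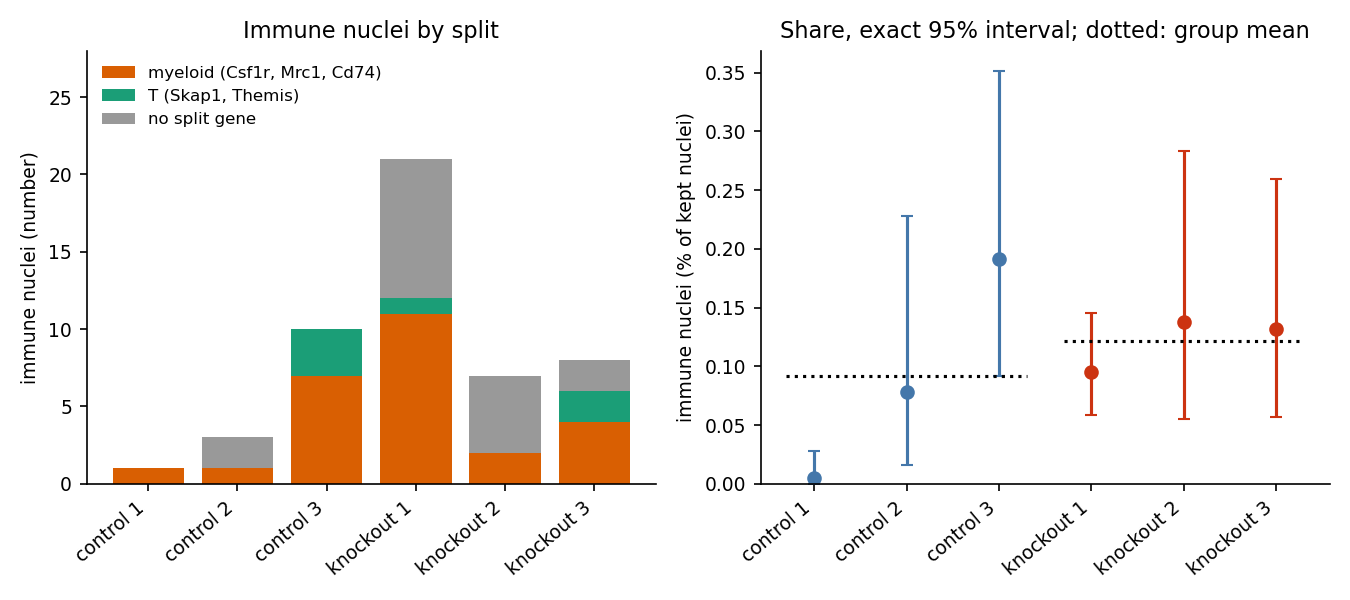
Left, number of immune nuclei in each library by class; right, immune nuclei as a percentage of kept nuclei, with exact 95% intervals and dotted group means. The knockout libraries lie between 0.0952 and 0.138%, inside the control range of 0.00509 to 0.191%.

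The classes showed the same overlap. Myeloid nuclei numbered 1, 1 and 7 in controls 1, 2 and 3, against 11, 2 and 4 in knockouts 1, 2 and 3, and their mean share of kept nuclei differed by -0.00323 percentage points, knockout minus control (exact permutation p = 1, n = 3 per group). Without control 3, which held 7 of the 9 control myeloid nuclei, that difference was 0.0362. T nuclei numbered 0, 0 and 3 for controls 1 to 3, against 1, 0 and 2 for knockouts 1 to 3, a difference of -0.00660 percentage points (exact permutation p = 1, n = 3 per group). The libraries with 0 T nuclei allow a share of up to 0.0153% in control 1, 0.0780% in control 2 and 0.0590% in knockout 2. B nuclei numbered 0 in every library, which allows up to 0.0136 to 0.0780% per library. These limits hold under the Slc34a1 and Slc12a1 rule only. Without it the split placed 7 nuclei in the B class, 3 in controls and 4 in knockout 1 (0.0181% there). It placed 8 nuclei of control 1 in the T class (0.0407%). Bank1 was detected in 0.722% and Skap1 in 3.81% of the kept nuclei outside the immune nuclei. Whether nuclei above the tubule limits were B or T cells was not tested. Among immune nuclei the myeloid share was 100, 33.3 and 70% in controls 1, 2 and 3, against 52.4, 28.6 and 50% in knockouts 1, 2 and 3, a mean difference of -24.1 percentage points (exact permutation p = 0.3, n = 3 per group). The T share of immune nuclei differed by -0.0794 percentage points (exact permutation p = 1, n = 3 per group). Adjusted over these 6 comparisons by the Benjamini-Hochberg method, every exact p was 1. These tests do not show that the groups are alike, since 3 libraries against 3 cannot reach 0.05. Of the nuclei with no split gene, 16 of 18 were in knockout libraries, 9 of them in knockout 1, a split that was not tested.

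Myeloid nuclei carried genes of antigen-presenting cells. Of 12 dendritic cell genes, 9 were detected in the class with 74 UMIs, and 54 of these came from a single gene. That gene, Wdfy4, which dendritic cells need to cross-present antigen, was found in 14 of 26 myeloid nuclei, or 1290 CPM (exact Poisson 95% interval 969 to 1683, counting error only), against 5.16 CPM in the other kept nuclei. It was detected in 5 of 9 myeloid nuclei of controls and in 9 of 17 of knockouts. By library this was 1 of 1, 0 of 1 and 4 of 7 in controls 1, 2 and 3 and 6 of 11, 1 of 2 and 2 of 4 in knockouts 1, 2 and 3, so Wdfy4 was seen in both groups. T nuclei had 0 UMIs of Wdfy4, which allows up to 298 CPM in that class. Btla, an inhibitory receptor of lymphocytes and dendritic cells, had 23 UMIs in 8 myeloid nuclei, and all 8 also held Wdfy4. Clec9a, a receptor of cross-presenting dendritic cells, had 5 UMIs in 4 myeloid nuclei. Zbtb46, a transcription factor of the dendritic lineage, was detected in 6 myeloid nuclei, and Xcr1, a chemokine receptor of cross-presenting dendritic cells, in 2. Flt3 had 2 UMIs in the class, Itgax, Cd209a, Batf3 and Irf4 had 1 each, and Siglech and Ccr7 were at 0. Irf8 had 0 UMIs in the other kept nuclei as well, so its 0 does not describe the class.

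Class II genes were sparse but present in most myeloid nuclei. Ciita, the master regulator of class II transcription, had 18 UMIs in 11 of 26 myeloid nuclei. H2-Aa, a class II chain, had 13 UMIs in 8 myeloid nuclei, and 7 of these UMIs were in control 3. The level of H2-Aa in myeloid nuclei was 310 CPM, 177 CPM without control 3 and 612 CPM without knockout 1. At least 1 UMI of Ciita, H2-Aa, H2-Ab1 or H2-Eb1 was found in 15 myeloid nuclei, 10 of which held Wdfy4, in 1 of 6 T nuclei and in 5 of 18 nuclei with no split gene. By group this was 7 of 9 myeloid nuclei in controls and 8 of 17 in knockouts. Cd74, the invariant chain of class II, was the gene that placed 12 of the 26 nuclei in the class without Csf1r or Mrc1. Nuclei with no split gene lack Cd74 by definition. The comparison of class II genes between classes is therefore not independent of the split and is a description with no test. Cd74 was also detected in 7.21% of the other kept nuclei.

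Of 17 resident macrophage genes, 12 were detected in the myeloid class with 110 UMIs, most of them from Pid1. Mertk and Maf stood at 143 and 119 CPM in myeloid nuclei, below the 263 and 322 CPM of the other kept nuclei. The other detected genes of the list were higher in myeloid nuclei, though Adgre1 rested on 2 UMIs and Cx3cr1 on 1. Pid1, which the macrophage list holds, had 68 UMIs in 21 of 26 myeloid nuclei, at 1624 CPM against 32.5 CPM in the other kept nuclei. Control 3 held 36 of these UMIs and knockout 1 held 16, and the level was 942 CPM without control 3 and 2893 CPM without knockout 1. Both Pid1 and Wdfy4 were found in 12 myeloid nuclei, Pid1 alone in 9, Wdfy4 alone in 2 and neither in 3. Csf1r, the receptor that macrophages need to survive, had 11 UMIs in 9 immune nuclei. Its ligands Il34 and Csf1 had 13 UMIs in 10 immune nuclei and 4 UMIs in 1 immune nucleus. Il34 was at 183 CPM in immune nuclei, below the 297 CPM of the other kept nuclei, 36.5% of which held it. The complement genes that mark many tissue macrophages were nearly absent, with 1 UMI of C1qa, 1 of C1qb and 0 of C1qc in all 50 immune nuclei. Cd163, F13a1 and Lyve1, genes of perivascular and other resident macrophages, were at 0, which allows up to 42.3 CPM for each. Ccr2, the chemokine receptor of recruited monocytes, had 12 UMIs in 9 immune nuclei, 5 of these UMIs in controls and 7 in knockouts, while Ly6c2 was at 0 and had 18 UMIs in all other kept nuclei. Of 14 genes of activated macrophages, 8 were at 0, Gpnmb, Trem2, Tnf and Nos2 among them, and the other 6 had 22 UMIs in 16 nuclei.

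**Figure D4:**
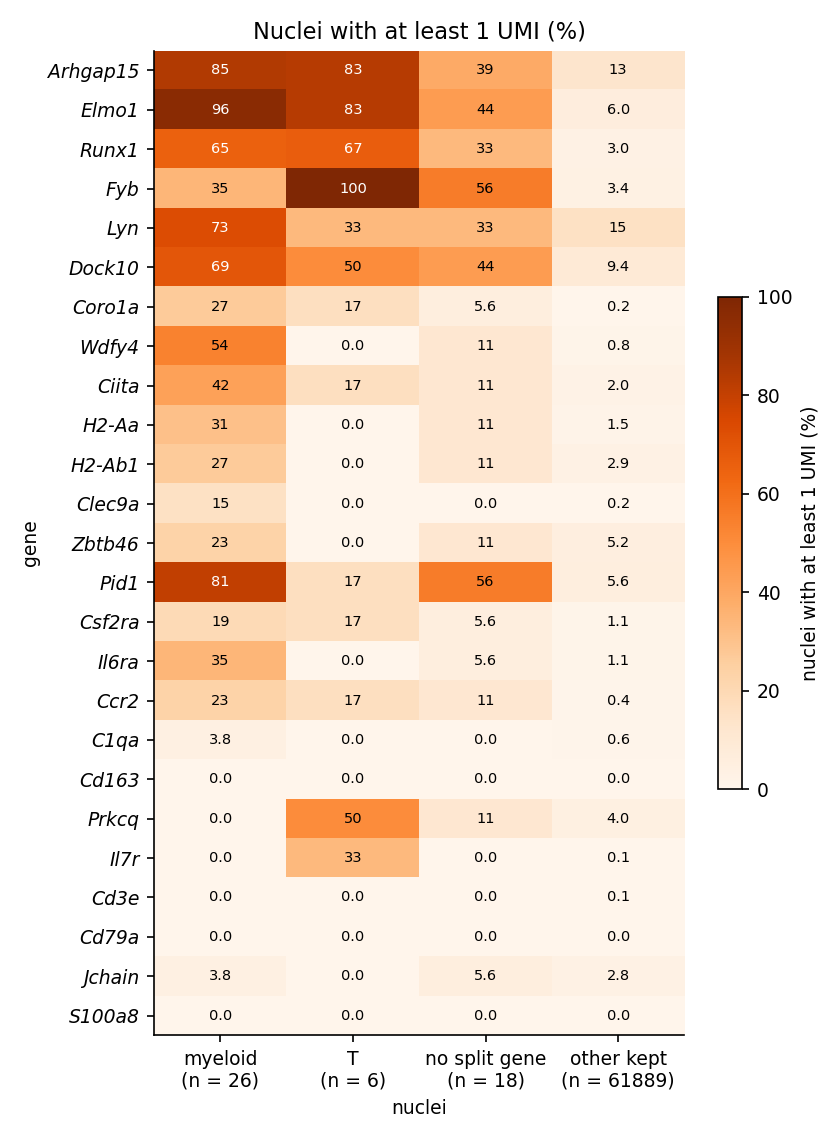
Percentage of nuclei with at least 1 UMI of each gene (rows) in myeloid, T and no-split nuclei and in the other kept nuclei (columns), where darker cells are higher. Wdfy4 was detected in 53.8% of myeloid nuclei and in 0 of 6 T nuclei, and Fyb in all 6 T nuclei.

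Among genes outside all lists, those with the highest ratio of myeloid to other nuclei, given at least 20 UMIs in at least 3 libraries, were led by Btla. Slc9a9, a sodium-proton exchanger of endosomes, followed with 41 UMIs in 15 of 26 myeloid nuclei. Mctp1 had 27 UMIs in 13 nuclei, the corepressor Cbfa2t3 20 UMIs in 13 and Tbc1d9 20 UMIs in 14. Pip4k2a, a phosphoinositide kinase, had 51 UMIs in 21 nuclei of 6 libraries, and the adhesion molecule Alcam had 66 UMIs in 16. In the T class 8 genes reached that minimum, led by Phactr2 with 20 UMIs in 3 nuclei, 15 of them in control 3. Its ratio was 3.02 and 62.8% of the other kept nuclei held it, and 5 of the 8 genes had ratios below 1.

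T nuclei were few and most genes of the T cell receptor complex were not detected in them. Skap1, an adaptor of T cell receptor signalling that the split used, had 18 UMIs over all 6 nuclei, 2 of which held a single Skap1 UMI. One was the only T nucleus of knockout 1, with 0 UMIs of the T cell or natural killer lists and 14 of injured tubule genes. The other, in control 3, had 6 UMIs of the T cell list. Skap1 was also detected in 3.81% of the other kept nuclei. Of 20 further T cell genes, 9 were detected in the class, with 21 UMIs in 5 of 6 nuclei. Prkcq, the protein kinase C of the T cell synapse, had 6 UMIs in 3 nuclei, and Grap2, an adaptor of the same pathway, had 4 UMIs in 4 nuclei. Il7r, the interleukin 7 receptor, had 3 UMIs, and Foxp3, the factor of regulatory T cells, had 1. Cd247, a signalling chain of the receptor complex, had 2 UMIs in 2 nuclei, and the co-receptor gene Cd8a had 1. Cd3e, Cd3d, Cd3g and Cd4 were at 0, which allows up to 298 CPM for each in this class. UMIs of the T cell or natural killer lists were also found in 9 of 26 myeloid nuclei and in 6 of 18 with no split gene. Both myeloid and T split genes were present in 2 of the 50 nuclei.

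Of 14 B cell genes, 7 were detected, with 75 UMIs in 31 of the 50 nuclei. Most of these came from genes that other kidney nuclei also held. Bach2 had 22 UMIs in 17 nuclei and was detected in 39.5% of the other kept nuclei. Aff3 had 21 UMIs in 10 nuclei, 16 of them in myeloid nuclei, and was detected in 9.62% of the others. Cd79a, Cd79b and Pax5 were at 0, and Ms4a1 had 1 UMI. Ebf1, a B cell factor that stromal and endothelial cells also express, had 17 of its 23 UMIs in nuclei with no split gene, where endothelial genes were at 2.17 UMIs per 1000 against 0.669 in myeloid nuclei. Granulocyte and mast cell genes had 2 UMIs in all 50 nuclei. Natural killer genes had 3. Podocyte genes had 53 UMIs, 41 of them from Magi2, which was detected in 64.6% of the other kept nuclei. Mesenchymal genes had 10 UMIs. Of 16 interferon response genes, 9 were detected, with 32 UMIs in 22 nuclei.

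Cell cycle genes were found in a few nuclei of both groups. At least 3 UMIs of 16 such genes were present in 6 immune nuclei: 3 myeloid nuclei of control 3, 2 myeloid nuclei of knockout 1 and 1 T nucleus of knockout 3. Mki67, a gene of proliferating cells, had 4 UMIs in control 3 and 2 in knockout 3. The T nucleus had 7 cell cycle UMIs of 889.

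Genes of injured tubule were concentrated in knockout 1. This list had 97 UMIs in the immune nuclei, and 85 of them were in knockout 1, which also held 21 of the 50 nuclei. Per 1000 UMIs of immune nuclei the list stood at 0.675, 0.215 and 0.405 in controls 1, 2 and 3, against 2.26, 0.605 and 0.205 in knockouts 1, 2 and 3. Knockout 1 was high and the other knockouts lay within or below the control range, so the groups overlapped. Outside knockout 1 the list rested largely on Cd44, at 240 CPM in immune nuclei and 24.7 CPM in the others. Cd44 had 0, 1 and 4 UMIs in controls 1, 2 and 3, of 1, 1 and 5 for the list. In knockouts 1, 2 and 3 it had 8, 3 and 1 UMIs, of 85, 3 and 2. Whether the Cd44 RNA came from tubule was not tested. In the other kept nuclei the same list stood at 0.243, 0.135 and 0.114 for controls 1 to 3, against 0.789, 0.513 and 0.426 for knockouts 1 to 3. All 9 immune nuclei with at least 3 of these UMIs were in knockout 1, in 5 myeloid, 1 T and 3 with no split gene. Kcnip4 alone had 45 of its 46 UMIs there, in 6 nuclei.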

How the data were processed

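Per the file headers, the deposited matrices were made by the authors with Cell Ranger 3.1.0 and hold raw, unnormalized UMI counts for each gene in each barcode. The build mm10 and Seurat, without a role, are named in the submitters' processing notes; the annotation and the settings of barcode calling are not given in the sources used here. Nuclei, classes and lists were chosen with earlier results of these data known. From the counts, nuclei were selected and split as described, with no doublet caller (Scrublet in scanpy 1.11.5 was an alternative), and shares were compared between libraries with exact permutation tests (scipy 1.17.1). Genes named come from the rule, the 21 lists, or the leading genes outside them. The edgeR tests planned on summed counts were not made: with a minimum of 10 nuclei, control 3 and knockout 1 alone had enough. A fit on nuclei without the tubule limits (edgeR 4.0.16, TMM, filterByExpr, tested on simulated data) was added after its result was seen. Deviations of same-numbered libraries correlated at 0.627, 0.380 and 0.338 over 9176 genes, and the numbers were treated as pairs, although control 3 correlated at 0.455 with knockout 2 and control 2 at 0.223 with knockout 3. Some genes of the lists are not reported here.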

Additional observations from a re-analysis of the deposited data

How the results depend on the processing

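With 3 libraries against 3 or 2, the exact permutation p of a share cannot go below 0.1, so these tests show no stability. That minimum was reached for the immune and myeloid shares of kept nuclei without control 3 and for the myeloid share of immune nuclei without control 2. Values are knockout minus control in percentage points. Leaving out 1 library at a time, the immune share of kept nuclei ranged from -0.0129 (without control 1) to 0.0801, the myeloid share from -0.0282 to 0.0362 (without control 3), the T share from -0.0168 to 0.0125, the myeloid share of immune nuclei from -41.3 to -8.02 and the T share of immune nuclei from -7.62 to 9.92. The direction also turned for the immune share with 0 UMIs of 6 tubule genes (-0.0170), for the myeloid share of kept nuclei with 2 marker UMIs (0.0120), without Cd74 (0.0113) and without tubule limits (0.0456), for the T share of kept nuclei with at least 500 genes (0.00036) and without tubule limits (0.0148), for the myeloid share of immune nuclei after thinning to 500 UMIs (5 points), and for the T share of immune nuclei with 2 marker UMIs (1.25), with at least 500 genes (5.29) and with the highest Scrublet scores left out (0.185). The cause was not tested. Without tubule limits, an alternative chosen after seeing the data, the immune share differed by 0.154. With the replicate block, paired exact p was 0.5 for the immune share, where the difference stayed at 0.0302, and no call on a share changed. Without tubule limits, the block raised the count of genes that passed from 0 to 38, and leaving out 1 library at a time gave 0 to 8. The alternatives planned for the edgeR tests were not run. With 0 UMIs of 6 tubule genes, the shares of immune nuclei had no value in libraries left with 0 immune nuclei. Depth limits the rule: 12 of 26 myeloid nuclei rest on a single split UMI.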

Other observations

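Jchain, which joins polymeric antibodies in plasma cells, had 8 UMIs in 2 immune nuclei, 3 in a myeloid nucleus of control 2 and 5 in a nucleus with no split gene of knockout 2. The second also held the 1 UMI of Mzb1, a gene of antibody assembly. Jchain was detected in 2.76% of the other kept nuclei.

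Of the cytokine receptors named here, all but Csf2rb were detected in myeloid nuclei of both groups. Il6ra, a receptor subunit for interleukin 6, had 11 UMIs in 9 of 26 myeloid nuclei, and Ifngr1, a subunit of the interferon gamma receptor, had 7 UMIs in 7. Csf2ra, a subunit of the GM-CSF receptor, had 7 UMIs in 5. Csf2rb, its signalling partner, had 5 UMIs in 3, and 0 UMIs in the immune nuclei of controls. Tgfbr1 and Tgfbr2, the receptors of TGF-beta, had 18 and 12 UMIs in myeloid nuclei, but both were also detected in 24.1 and 17.5% of the other kept nuclei.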
